A study of Mus musculus with 2 samples.

Results

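Conventional natural killer (NK) cells were picked out of a droplet single-cell RNA data set from the tumour region of mouse livers. They numbered 136 of 16305 barcodes kept after quality limits. A barcode is the tag of a droplet, which mostly holds a single cell, and each captured mRNA carries a unique molecular identifier (UMI). A barcode was taken as a conventional NK cell when it had at least 300 detected genes and at most 25% of its UMIs from mitochondrial genes. It needed at least 1 UMI of Ncr1 or Klrb1c, which code for the NK receptors NKp46 and NK1.1, and at least 1 of Klra8, Klra4 or S1pr5, the first pair coding for Ly49 receptors and the last for a receptor that guides NK cells into blood. It had no UMI of Cd3d or Cd3e (T cells), Gzmc, Cd200r1 or Itga1 (type 1 innate lymphoid cells, ILC1), Cd79a (B cells) or Csf1r (macrophages). Levels of these genes in the chosen cells are fixed by the choice and are given as description only.

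The inhibitor library came from C57BL/6 mice, 17 months old, fed the CD-HFD diet over 15 months and treated from month 13 with a compound that inhibits FABP5, a cytosolic carrier protein for fatty acids. The control library came from C57BL/6 mice of the same age, diet and tumour region, labelled as controls. The labels do not say how many mice went into each library, their sex or what the controls received, and the fraction kept from the Annexin V step meant to select live cells was not stated. The inhibitor library held 10649 deposited barcodes and 68074929 UMIs, and the control library 9493 barcodes and 53378693 UMIs. Each group is 1 library, which allows neither a test nor a replicate check, so every difference below is between these 2 libraries, and all 95% intervals cover counting error only.

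NK cells are innate lymphocytes that kill stressed, infected or malignant cells with granules of perforin and granzymes and make interferon gamma and chemokines. In mice, Ly49 receptors read MHC class I on other cells and set the threshold for killing. Conventional NK cells pass through the liver in blood and depend on the transcription factor Eomes, whereas ILC1 stay in the tissue and express Itga1 and Cxcr6. As mouse NK cells mature they lose Cd27 and gain Itgam (CD11b) and Klrg1.

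Promoters of 5 genes are shown because Ncr1 anchors the choice, Prf1 and Gzma carry the killing function, and Klra9 is the Ly49 gene whose level differed most between the libraries and Klra3 its close copy. Each runs from 250 bases before to 50 bases after the gene start listed by RefSeq on GRCm38.p6, on the gene's own strand. They lie at chr7:4337465-4337764 (plus strand, the first of 2 listed starts) for Ncr1, chr10:61297586-61297885 (plus) for Prf1, chr13:113100932-113101231 (minus) for Gzma, chr6:130193063-130193362 (minus) for Klra9 and chr6:130337577-130337876 (minus) for Klra3. Capitals mark the RUNX motif TGTGGT on either strand.
Ncr1: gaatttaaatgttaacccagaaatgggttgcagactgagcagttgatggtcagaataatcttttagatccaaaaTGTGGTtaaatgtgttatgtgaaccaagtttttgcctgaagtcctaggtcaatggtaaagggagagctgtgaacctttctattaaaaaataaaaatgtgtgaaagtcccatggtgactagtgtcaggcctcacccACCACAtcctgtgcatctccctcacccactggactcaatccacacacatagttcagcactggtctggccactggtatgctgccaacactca
Prf1: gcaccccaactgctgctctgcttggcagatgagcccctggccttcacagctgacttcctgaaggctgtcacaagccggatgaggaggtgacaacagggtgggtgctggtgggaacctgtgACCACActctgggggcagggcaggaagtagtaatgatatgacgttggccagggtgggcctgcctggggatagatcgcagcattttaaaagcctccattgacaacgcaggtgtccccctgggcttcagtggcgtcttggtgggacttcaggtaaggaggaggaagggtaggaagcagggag
Gzma: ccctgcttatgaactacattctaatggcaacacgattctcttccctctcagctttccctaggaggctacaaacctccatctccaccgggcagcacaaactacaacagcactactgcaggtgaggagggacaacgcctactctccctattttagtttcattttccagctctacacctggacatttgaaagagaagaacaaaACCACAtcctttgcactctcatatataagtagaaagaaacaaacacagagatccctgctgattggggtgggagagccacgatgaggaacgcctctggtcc
Klra9: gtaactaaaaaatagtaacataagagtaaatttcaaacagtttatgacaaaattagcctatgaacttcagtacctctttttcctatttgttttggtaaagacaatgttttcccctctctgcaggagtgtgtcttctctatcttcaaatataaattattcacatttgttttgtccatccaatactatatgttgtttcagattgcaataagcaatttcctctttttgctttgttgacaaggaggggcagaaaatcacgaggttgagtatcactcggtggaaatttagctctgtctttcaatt
Klra3: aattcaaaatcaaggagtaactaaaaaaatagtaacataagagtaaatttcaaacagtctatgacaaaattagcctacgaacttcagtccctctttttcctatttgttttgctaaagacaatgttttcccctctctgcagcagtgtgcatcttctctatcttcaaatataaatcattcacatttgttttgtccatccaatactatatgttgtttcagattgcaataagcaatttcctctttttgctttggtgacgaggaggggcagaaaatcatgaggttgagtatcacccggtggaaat
The RUNX motif stood at 2 places in the Ncr1 window and at 1 place each in those of Prf1 and Gzma, and these letters were in neither Ly49 window. The T-box motif GGTGTGA, searched on both strands, was in none of the 5. Among all 27025 gene promoters of the same length 16.9% held the RUNX motif and 3.96% the T-box motif. Among the 30 genes that stood out most in these cells against all other kept barcodes, 25 had a promoter in the table, and 12 of them (48%) held the RUNX motif and 2 (8%) the T-box motif. The 2722 promoters of genes counted in the NK cells held them at 12.7% and 3.31%. A match of letters is not a shown binding site. The Klra9 and Klra3 windows were 84.95% identical, and the last 300 bases of their transcripts 98.67% identical, so that 3′ reads of these genes may be assigned to either, and their counts are uncertain.

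The chosen barcodes carried NK genes that the choice did not use. Gzma, a granzyme of NK granules, was at 8031 CPM (CPM being the UMIs of a gene scaled to a fixed total of UMIs of the set; 95% interval 7747 to 8323) in the inhibitor NK cells and 10416 CPM (9926 to 10923) in the control NK cells. It had a UMI in 92.6% and 90.5% of them, and in all other kept barcodes it was at 95.6 CPM in the inhibitor and 99.1 CPM in the control library. Prf1, coding for perforin, was at 726 and 792 CPM in the NK cells, 27-fold above the rest. The 10 genes with the highest ratio to the rest were Cma1, Khdc1a, Gzma, Klri2, Klra7, Klra3, Klra9, Klrb1a, Styk1 and Spry2 (a description, with no test), and Klri2, Klra7, Klra3, Klra9 and Klrb1a among them code for lectin-type receptors. Cma1, a chymase gene, stood highest with 157 and 288 CPM against 0.703 and 0.401 CPM in the rest. Ncr1 itself was at 825 and 841 CPM and Klra8 at 838 and 1086 CPM, values that the choice sets. Klre1 and Nkg7, markers of NK and killer lymphocytes outside the choice, were at 1051 and 3454 CPM in inhibitor and 1375 and 3271 CPM in control NK cells, so the markers did not go against the name. Not all of them part these cells from the ILC1-like barcodes described below. There, Klrb1a was at 248 and 221 CPM, against 200 and 215 CPM in the NK cells, and Klre1 at 722 and 832 CPM. Gzma was lower there, at 1206 and 719 CPM, and Cma1 at 2.59 CPM and 0.

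**Figure D1:**
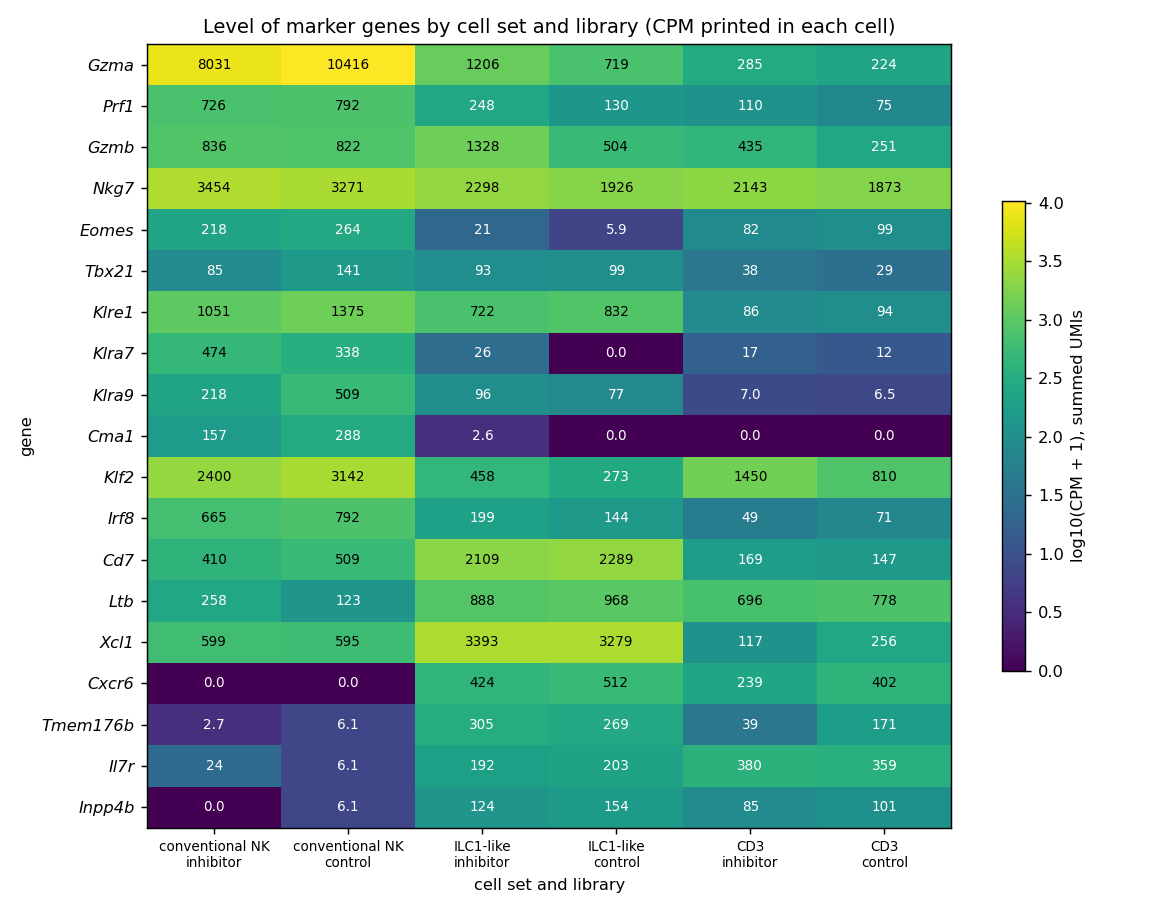
Levels of 19 genes (rows) in conventional NK cells, ILC1-like barcodes and CD3 barcodes of the inhibitor and control libraries (columns), with CPM of summed UMIs printed in each cell and colour on a log10(CPM + 1) scale. Gzma was at 8031 and 10416 CPM in conventional NK cells, and Cxcr6 at 0 there against 424 and 512 CPM in ILC1-like barcodes.

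Inhibitor NK cells had 1444 to 20850 UMIs with a median of 3324 and a median of 1304 genes, and control NK cells 1636 to 23992 UMIs with medians of 3153 UMIs and 1285.5 genes. The median mitochondrial share was 4.46% in inhibitor and 5.43% in control NK cells. The median over all kept barcodes was 6617 UMIs in the inhibitor and 4085 UMIs in the control library, so that the NK cells were shallower than the median barcode in both. ILC1-like barcodes had medians of 4746 and 4341 UMIs and CD3 barcodes of 3813 and 3714 UMIs. Of barcode sequences, 29 were present in both libraries, and 0 of the NK cells had one of them.

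Some barcodes stood apart. After the data had been seen, barcodes with over 2 times their library's median NK UMIs, or over 2% of UMIs from the marker list of another cell type, were set aside, and results are given with and without them. They were 12 of the 94 inhibitor NK cells, holding 29.0% of their UMIs, and 2 of the 42 control NK cells, holding 20.6%. The UMI limit was passed by 9 inhibitor and 2 control barcodes and the marker limit by 6 and 0, some passing both. Deep barcodes without much RNA of other types were thus set aside too, among them both of the control library. In the inhibitor library the barcode with most UMIs held 509 UMIs of Fabp1, a hepatocyte gene, another held 3669 UMIs of the haemoglobin gene Hbb-bs, 67.3% of it being erythroid RNA, and another 230 UMIs of the myeloid gene Lyz2. In 3 more, neutrophil genes such as S100a8 and S100a9 made up 2.03% to 7.66% of UMIs. In the control library the barcode with most UMIs held 461 UMIs of cell cycle genes and 14.7% of all NK UMIs of that library. Doublets were not called by a program.

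**Figure D2:**
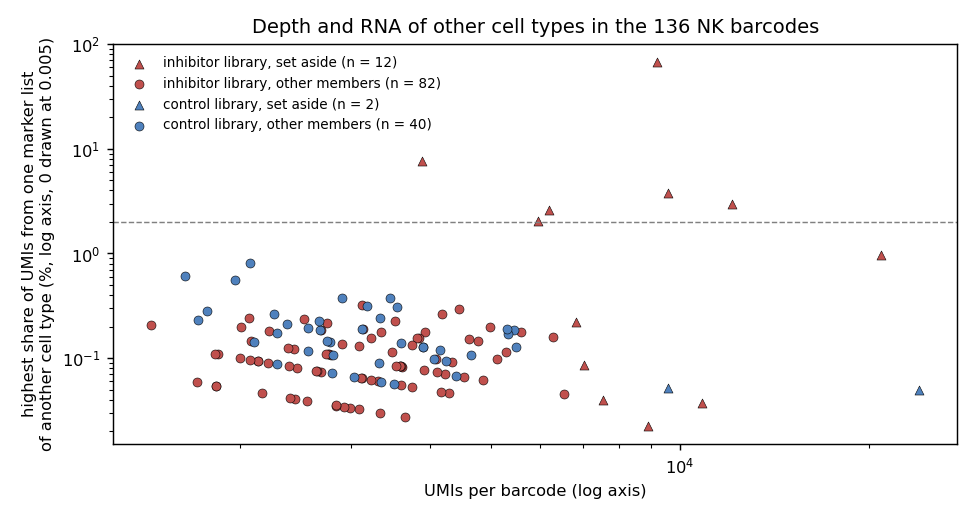
Each point is 1 of the 136 NK barcodes, with its UMIs on a log axis against the highest share of its UMIs from the marker list of 1 other cell type in percent (log axis, 0 drawn at 0.005), and the dashed line marks 2%. The 12 inhibitor and 2 control barcodes set aside are drawn as triangles, and the highest holds 67.3% erythroid RNA.

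RNA of other cells was also spread thinly over both libraries, in different kinds. Alb, the albumin gene of hepatocytes, had a UMI in 8.51% of inhibitor NK cells and in 78.6% of control NK cells, at 29.3 and 522 CPM. Lyz2 had a UMI in 54.3% of inhibitor NK cells and 11.9% of control NK cells, at 868 and 36.8 CPM, of which 230 of 326 inhibitor UMIs lay in 1 barcode. The same directions appeared in CD3 barcodes, with log2 ratios of inhibitor over control of -3.75 for Alb and 3.87 for Lyz2, and in ILC1-like barcodes, with -4.38 and 5.19. Of 18 macrophage and monocyte markers 14 were detected in inhibitor NK cells and 8 in control NK cells, with a summed level per cell of 0 to 38188 CPM (median 799) and 0 to 3095 CPM (median 620), while C1qb, C1qc and Ms4a7 were at 0 in both. Of 18 hepatocyte markers 17 and 18 were detected, at 0 to 9592 CPM (median 0) and 0 to 8189 CPM (median 1221). Of 10 neutrophil markers 9 and 4 were detected, at summed levels per cell of 0 to 76607 CPM in inhibitor and 0 to 472 CPM in control NK cells with medians of 0. Of 16 T cell markers 8 and 6 were detected, at 0 to 2913 CPM (median 1043) in inhibitor and 0 to 1935 CPM (median 759) in control NK cells. Cd4, Cd8a, Cd8b1 and Cd5 were at 0 in both, and the T cell level came mostly from Trbc1 (508 and 387 CPM) and Trbc2 (255.5 and 288 CPM), constant regions of the T cell receptor beta chain whose transcripts NK cells are also known to make. Of 12 dendritic markers 7 and 4 were detected, at 0 to 30036 CPM per cell in inhibitor and 0 to 690 CPM in control NK cells with medians of 0, and Xcr1, Clec9a and Siglech were at 0 in both. Of 10 B cell markers 3 were detected in each library, at 0 to 730 and 0 to 1129 CPM per cell with medians of 0, and Ms4a1 was at 0 in both. Of 8 erythroid and platelet markers 5 were detected in each, at 0 to 673420 CPM (median 321) in inhibitor and 0 to 2335 CPM (median 580) in control NK cells.

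As lists between the libraries, 5 of 6 counted macrophage and monocyte, 4 of 5 neutrophil, 4 of 4 dendritic and 5 of 5 erythroid markers were at least 2-fold higher in inhibitor NK cells, as were 3 of 9 hepatocyte markers, while 3 of 9 hepatocyte markers and 1 macrophage and monocyte marker, Apoe, were lower. Of the other lists, 1 of 5 T cell, 1 of 2 B cell and 1 of 1 stellate and endothelial markers were higher, and 1 B cell marker was lower. Among all counted genes 7.72% were at least 2-fold higher and 3.58% lower. Most of these calls were lost without the set-aside barcodes. Of 4 counted macrophage and monocyte markers 1 was then higher and 1 lower, of 4 erythroid markers 0 were higher and 1 lower, of 3 hepatocyte markers 0 were higher and 3 lower, and 0 of 1 dendritic and 0 of 3 T cell markers passed 2-fold. The B cell counts stayed at 1 higher and 1 lower of 2, and 0 neutrophil and 0 stellate and endothelial markers reached 20 UMIs. The part of this RNA in the results below was not tested beyond leaving the set-aside barcodes out.

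Where Klra8, Klra4 and S1pr5 set the limit of the choice, barcodes just outside had less RNA of Gzma than the cells just inside. Just inside, 12 inhibitor and 5 control cells rested on a single UMI of Klra8, Klra4 or S1pr5 and had Gzma at 10987 and 21339 CPM, while just outside, 70 and 61 barcodes with no UMI of these genes had Gzma at 3628 and 1026 CPM and Eomes at 98.5 and 38.5 CPM. Lyz2 was at 295 and 51.9 CPM inside this limit and at 3573 and 70.0 CPM outside it. A single UMI of Ncr1 or Klrb1c carried 7 inhibitor cells and 1 control cell, and 16 and 8 barcodes outside had none, with Gzma at 1041 and 640 CPM, against 4904 CPM and 0 inside. The myeloid gene Lyz2 was at 18404 and 11247 CPM in the barcodes outside, against 249 CPM and 0 inside. A single Cd3d or Cd3e UMI kept out 6 inhibitor barcodes and 1 control barcode. A single UMI of Gzmc, Cd200r1 or Itga1 kept out 3 and 5 barcodes, with Gzma at 7749 and 16895 CPM.

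Conventional NK cells made up more of the inhibitor library than of the control library. They were 94 of 9470 kept barcodes in the inhibitor library, or 0.993% (95% Clopper-Pearson interval 0.803 to 1.21), and 42 of 6835 in the control library, or 0.614% (0.443 to 0.830). The ratio was 1.62-fold (1.11 to 2.38, exact conditional interval). Among barcodes with Ncr1 or Klrb1c and no Cd3d or Cd3e they were 94 of 243 (38.7%, 32.5 to 45.1) in the inhibitor and 42 of 217 (19.4%, 14.3 to 25.2) in the control library. ILC1-like barcodes, chosen under the same limits by Gzmc, Cd200r1 or Itga1 and the absence of Klra8, Klra4 and S1pr5, went the other way, with 76 (0.803%, 0.633 to 1.00) in the inhibitor and 109 (1.59%, 1.31 to 1.92) in the control library. There were 1.24 conventional NK cells per ILC1-like barcode in the inhibitor and 0.385 in the control library, and the Ncr1 or Klrb1c barcodes with neither gene set were 70 (0.739%) and 61 (0.892%).

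These shares depend on what else was captured and on the limits. The mitochondrial limit was exceeded by 885 of the deposited inhibitor barcodes and 2204 of the control barcodes, and of all deposited barcodes the NK cells were 0.883% in the inhibitor and 0.442% in the control library. CD3 barcodes were 27.4% and 36.3% of kept barcodes, B cell barcodes 3.98% and 9.58%, and neutrophil barcodes 4.58% and 7.90%. When every barcode was thinned to 1500 UMIs before the choice, 71 inhibitor and 36 control cells remained, with a log2 ratio of the shares of 0.47 whose interval of -0.13 to 1.09 included 0. When cells with any UMI of Lyz2, Cd68, S100a8, Cd79b, Ms4a1, Flt3 or Siglech were left out, 39 inhibitor and 36 control cells remained and the log2 ratio turned to -0.35 (-1.05 to 0.34), beside the Lyz2 UMIs in 54.3% and 11.9% of the NK cells given above.

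**Figure D3:**
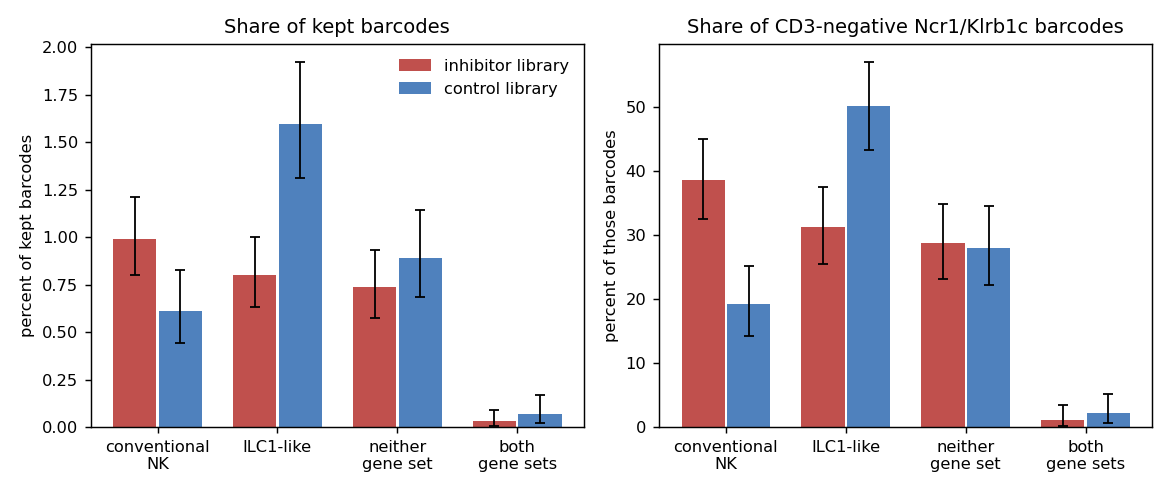
Shares of kept barcodes (left, percent) and of CD3-negative barcodes with Ncr1 or Klrb1c (right, percent) for 4 sets of barcodes in the inhibitor and control libraries, with 95% Clopper-Pearson intervals as bars. Conventional NK cells are at 0.993% and 0.614% of kept barcodes, and ILC1-like barcodes at 0.803% and 1.59%.

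Against ILC1-like barcodes of the same library, conventional NK cells had more RNA of Eomes and Klf2 and less of tissue-residence genes such as Cxcr6 in both libraries. They also had more of Ly49 genes, but the 2 sets were chosen by the presence and absence of Klra8, Klra4 and S1pr5. Gzmc, Cd200r1 and Itga1 parted the 2 sets too. Levels of other Ly49 genes are thus not independent of the choice. The same holds for Eomes, Klf2, Cxcr6 and other genes that may go along with the choice genes. All these levels are description only. Genes used by the choice of either set were left out of the gene counts in this paragraph. Of 4446 genes with at least 20 UMIs in the inhibitor library 284 (6.39%) were at least 2-fold higher and 295 (6.64%) at least 2-fold lower in conventional NK cells, and of 4099 genes in the control library 218 (5.32%) were higher and 448 (10.9%) lower. In both libraries 60 genes (1.59%) of 3775 were higher and 112 (2.97%) were lower. Eomes was at 218 CPM in NK cells against 20.7 CPM in ILC1-like barcodes of the inhibitor library, and at 264 against 5.93 CPM in the control library. Klf2, a transcription factor of circulating lymphocytes, was at 2400 against 458 CPM in the inhibitor and 3142 against 273 CPM in the control library. Irf8, another transcription factor of NK cells, was at 665 against 199 CPM and at 792 against 144 CPM. Klra7, coding for Ly49G, was at 474 against 25.9 CPM in the inhibitor library and at 338 CPM against 0 in the control library. All of these were higher in conventional NK cells of both libraries.

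On the other side, Cxcr6, the chemokine receptor of liver-resident lymphocytes, was at 0 in conventional NK cells of both libraries against 424 CPM in inhibitor and 512 CPM in control ILC1-like barcodes. Tmem176b was at 2.66 against 305 CPM and at 6.14 against 269 CPM, and Il7r, the interleukin 7 receptor, at 23.95 against 192 CPM and at 6.14 against 203 CPM. Xcl1, a chemokine that draws cross-presenting dendritic cells, was at 599 against 3393 CPM in the inhibitor and 595 against 3279 CPM in the control library. The death ligand gene Tnfsf10 (TRAIL) was at 0 in conventional NK cells of both libraries, against 77.6 and 134 CPM in ILC1-like barcodes. Of the list of ILC1 genes, 22 were counted in each library, and 19 of 22 were at least 2-fold lower in conventional NK cells in each. The choice genes Gzmc, Cd200r1 and Itga1 are among the 19, and the choice fixed their calls in advance.

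Most genes counted in NK cells differed by less than 1.5-fold between the libraries. Of 3408 genes with at least 20 UMIs in the NK cells of both libraries together, 263 (7.72%) were at least 2-fold higher and 122 (3.58%) at least 2-fold lower in inhibitor NK cells, and 551 (16.2%) and 403 (11.8%) passed 1.5-fold. Without the set-aside barcodes 129 of 2608 (4.95%) were at least 2-fold higher and 90 (3.45%) lower. The median log2 ratio over all counted genes was 0.02, and 0.04 without the set-aside barcodes. List counts below refer to members with at least 20 UMIs. They are to be read against the shares of all counted genes, 7.72% higher and 3.58% lower at 2-fold.

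Killing genes showed no member past 1.5-fold in either direction, 0 of 12 counted of 20 listed, with a median log2 ratio of 0.02. Gzmb was at 836 CPM in inhibitor and 822 CPM in control NK cells, Prf1 at 726 and 792 CPM, and Nkg7, a granule membrane protein, at 3454 and 3271 CPM. Gzma was lower in inhibitor NK cells by -0.38 (-0.46 to -0.29) on the log2 scale, with a median per cell of 8242 CPM (0 to 37360) in inhibitor and 13176 CPM (0 to 36324) in control NK cells, so that the cells overlapped over almost the whole range. In ILC1-like and CD3 barcodes the Gzma log2 ratio was 0.75 and 0.34. Serpinb6b, a serpin of killer cells, had 535 and 362 CPM, a log2 ratio of 0.56 (0.14 to 1.01), and Serpinb9, which protects killer cells from granzyme B, 460 and 338 CPM. Fasl, the death ligand for Fas, was at 178 and 203 CPM.

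Secreted signals had a list median of 0.01 over 8 of 15 genes. Of these, 2 (Ltb and Osm) were at least 2-fold higher and 0 lower, against 7.72% and 3.58% of all counted genes. When the set-aside barcodes were left out 0 of 7 passed 2-fold, Ltb being at 0.97 and Osm under 20 UMIs. Ccl5, the most abundant chemokine gene, was at 14250 CPM in inhibitor and 16400 CPM in control NK cells and had UMIs in every NK cell of both. Ifng was at 325 and 331 CPM, with a UMI in 48.9% and 40.5% of cells. Xcl1 had equal sums, 599 and 595 CPM, but a UMI in 66.0% of inhibitor and 38.1% of control cells, and without the set-aside barcodes its log2 ratio was 0.81. Of its 97 control UMIs, 44 lay in a single barcode. Ltb, lymphotoxin beta, had 258 and 123 CPM, a log2 ratio of 1.07 (0.37 to 1.85), and Osm, oncostatin M, 69.2 and 12.3 CPM from 26 and 2 UMIs, 8 of the 26 in 1 barcode.

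Receptors of the Ly49 family differed gene by gene. Of 11 listed genes 6 were counted, 0 at least 2-fold higher and 1 lower, against 7.72% and 3.58% of all counted genes. The median was -0.29, and -0.05 without the set-aside barcodes, where the genes of the choice are among the 6. Klra9, an inhibitory Ly49 gene, was at 218 CPM (174 to 271) in inhibitor and 509 CPM (406 to 632) in control NK cells, a log2 ratio of -1.22 (-1.68 to -0.77), and had a UMI in 38.3% and 54.8% of cells. Without the set-aside barcodes it was -1.25. With every cell thinned to 1400 UMIs, Klra9 had a UMI in 19.1% (11.8 to 28.6) of inhibitor and 35.7% (21.6 to 52.0) of control NK cells. Its close copy Klra3 was at 237 and 374 CPM, a log2 ratio of -0.66, and of 0.14 without the set-aside barcodes. Klra7 stood higher in inhibitor NK cells at 474 against 338 CPM, 0.49 (0.05 to 0.95), and Klra1 was at 117 and 104 CPM. Every chosen cell holds Klra8, Klra4 or S1pr5 by the choice, so their combinations are description only. Klra8 and Klra4 were found together in 43.6% of inhibitor and 38.1% of control NK cells, Klra8 alone in 34.0% and 31.0%, Klra4 alone in 15.96% and 19.05%, and S1pr5 alone in 6.38% and 11.9%. A median of 3 Ly49 genes per cell was detected in both libraries.

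NKG2A and NKG2C, receptors of the NKG2 group, pair with the protein of Klrd1 (CD94) and read the class I molecule Qa-1. Klrc1, the inhibitory NKG2A, was at 224 CPM in inhibitor and 117 CPM in control NK cells, 0.94 (0.21 to 1.74), with a UMI in 39.4% and 26.2% of cells. Klrc2, the activating NKG2C, was at 402 and 454 CPM, Klrd1 at 961 and 1252 CPM, and Klrk1, the activating NKG2D, at 1142 and 1185 CPM. Of the 15 listed NKG2 and inhibitory receptors 4 were counted, 0 at least 2-fold higher and 1, Klrg1, lower. The shares of all counted genes were 7.72% and 3.58%, and the list median was -0.09. The exhaustion receptor genes Pdcd1 and Havcr2 had 0 UMIs in both libraries. Of the signalling adaptors, Tyrobp (DAP12) was at 2988 and 2811 CPM and Fcer1g at 2459 and 2130 CPM. Of 23 counted identity genes 1 was at least 2-fold higher, the adaptor gene Sh2d1b1 at 63.9 and 30.7 CPM, and 0 were lower, with a median of -0.03. That median is the value of Ncr1, which the choice sets, and over the 21 genes outside the choice the median was 0.03, and 0.05 without the set-aside barcodes.

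Genes of late NK maturation had a median log2 ratio of -0.47 over 12 of 15 listed genes, against 0.02 over all counted genes. At the 2-fold level 0 were higher and 1, Klrg1, was lower, against 7.72% and 3.58% of all counted genes. At the 1.5-fold level 0 were higher and 5 lower, 1 of these being the choice gene S1pr5, against 16.2% and 11.8%. Without the set-aside barcodes the median was -0.59 over 11 genes, 2 of them lower by 2-fold (Klrg1 and Itgam) and 6, S1pr5 among them, by 1.5-fold. Outside the choice the median was -0.47 over 11 genes, and -0.53 over 10 genes without the set-aside barcodes. Klrg1, an inhibitory receptor for cadherins, was at 55.9 CPM (34.6 to 85.4) in inhibitor and 166 CPM (109 to 241) in control NK cells, a log2 ratio of -1.57 (-2.46 to -0.69), from 21 and 27 UMIs. In ILC1-like and CD3 barcodes the Klrg1 log2 ratio was 0.85 and 1.12. Cma1 was at 157 and 288 CPM, -0.88 (-1.46 to -0.29), and Spn, coding for CD43, at 114 and 203 CPM, -0.82 (-1.51 to -0.12). Itgam was at 74.5 and 123 CPM, -0.72 (-1.60 to 0.19), and Ly6c2 at 234 and 325 CPM, -0.47 (-0.98 to 0.05), both with intervals that include 0. Gzmb and Prdm1, also on this list, had log2 ratios of 0.02.

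Of 13 listed early-stage genes 10 were counted, with a median of 0.17 and of 0.37 without the set-aside barcodes. At 1.5-fold 3 were higher and 0 lower, against 16.2% and 11.8% of all counted genes. At 2-fold 2 were higher and 0 lower, against 7.72% and 3.58%. The 2 were Ltb and Cxcr3, a chemokine receptor for interferon-induced ligands, at 87.8 and 36.8 CPM, 1.25 (-0.02 to 2.80). Cd27 was at 152 and 117 CPM, 0.38 (-0.39 to 1.21), and Tcf7, the factor TCF-1 of early NK cells, at 95.8 and 55.2 CPM, 0.79 (-0.29 to 2.03). The intervals of Cxcr3, Cd27 and Tcf7 all include 0. Cd7 was at 410 and 509 CPM.

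Counted per cell at an equal depth of 1400 UMIs, Klrg1 had a UMI in 6.38% (2.38 to 13.4) of inhibitor and 26.2% (13.9 to 42.0) of control NK cells, Itgam in 7.45% (3.05 to 14.7) and 23.8% (12.1 to 39.5), and Cd27 in 17.0% (10.1 to 26.2) and 16.7% (6.97 to 31.4). No NK cell was left out by the thinning. Without thinning Klrg1 had a UMI in 12.8% and 33.3%, Itgam in 21.3% and 31.0%, and Cd27 in 41.5% and 35.7%. Cells with Klrg1 or Itgam and no Cd27 were 10.6% of inhibitor and 35.7% of control NK cells after thinning, 17.0% and 40.5% before it. B cell barcodes, set beside the NK cells, had median depths of 2723 UMIs in the inhibitor and 3221 UMIs in the control library. There, Klrg1 had a UMI in 0 of 367 inhibitor and 0 of 633 control barcodes after thinning, and Itgam in 2.18% and 0.632%.

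The list of transcription factors of the NK line, which also holds Bcl2, had a median of 0.00 over 22 of 31 listed genes. Of the counted genes 4 were at least 2-fold higher and 0 lower, against 7.72% and 3.58% of all counted genes. Eomes was at 218 CPM in inhibitor and 264 CPM in control NK cells, -0.27 (-0.82 to 0.29), and Tbx21 (T-bet) at 85.2 and 141 CPM, -0.73 (-1.55 to 0.11). Id2, which holds back the B and T cell fates, was at 870 and 1264 CPM, -0.54 (-0.79 to -0.28), and Klf2 at 2400 and 3142 CPM, -0.39 (-0.55 to -0.23). The 4 higher genes were Nfil3, Nr4a1, Maf and Bcl2, the last of which is not a transcription factor. Nfil3, required for NK development in mice, was at 74.5 and 30.7 CPM, 1.28 (-0.11 to 3.01), and Nr4a1, an early gene of receptor signalling, at 173 and 73.7 CPM, 1.23 (0.33 to 2.26), and 0.62 without the set-aside barcodes.

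Bcl2, an anti-apoptotic gene that interleukin 15 sustains in NK cells, was among the clearest differences. It was at 569 CPM (496 to 651) in inhibitor and 252 CPM (181 to 341) in control NK cells, a log2 ratio of 1.18 (0.69 to 1.70), and of 1.19 without the set-aside barcodes. The median per cell was 552 CPM (0 to 2022) in inhibitor and 73.0 CPM (0 to 2823) in control NK cells, and 24 of 94 and 20 of 42 cells had none. At equal depth it had a UMI in 53.2% (42.6 to 63.6) of inhibitor and 31.0% (17.6 to 47.1) of control NK cells. In ILC1-like barcodes the log2 ratio was 0.06 and in CD3 barcodes 0.70, and whether the sets differ was not tested.

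Cytokine receptors and their signalling had a median of 0.07 over 18 of 29 listed genes, 2 at least 2-fold higher (Smad7 and Socs1, both inhibitors of cytokine signalling) and 0 lower. Among all counted genes 7.72% were at least 2-fold higher and 3.58% lower. Il2rb, the receptor chain for interleukins 2 and 15, was at 681 and 700 CPM. Pim1, a kinase induced by cytokines, was at 593 CPM in inhibitor and 338 CPM in control NK cells, 0.81 (0.38 to 1.27). Trafficking genes had 2 of 19 counted at least 2-fold higher, Ccr2 and Cxcr3, and 0 lower, against the same 7.72% and 3.58%. Their median was 0.04, and -0.17 without the set-aside barcodes. A choice gene is among the 19, and over the other 18 these medians were 0.05 and -0.09. Ccr2, the receptor for the monocyte chemokine CCL2, was at 519 CPM (449 to 597) in inhibitor and 252 CPM (181 to 341) in control NK cells, 1.04 (0.55 to 1.57), and 0.85 without the set-aside barcodes. It had a UMI in 62.8% and 28.6% of cells, and at equal depth in 35.1% and 26.2%, with intervals of 25.5 to 45.6 and 13.9 to 42.0 that overlap. The Ccr2 log2 ratio was 1.03 in ILC1-like barcodes, 0.25 in CD3 barcodes and 0.99 in all other kept barcodes, where Ccr2 was at 717 CPM in the inhibitor and 361 CPM in the control library. Ccr2 is also on the macrophage and monocyte list, and the part of RNA from other cells in its difference was not tested. The integrin gene Itgb1 was at 213 and 338 CPM, -0.67 (-1.18 to -0.14).

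**Figure D4:**
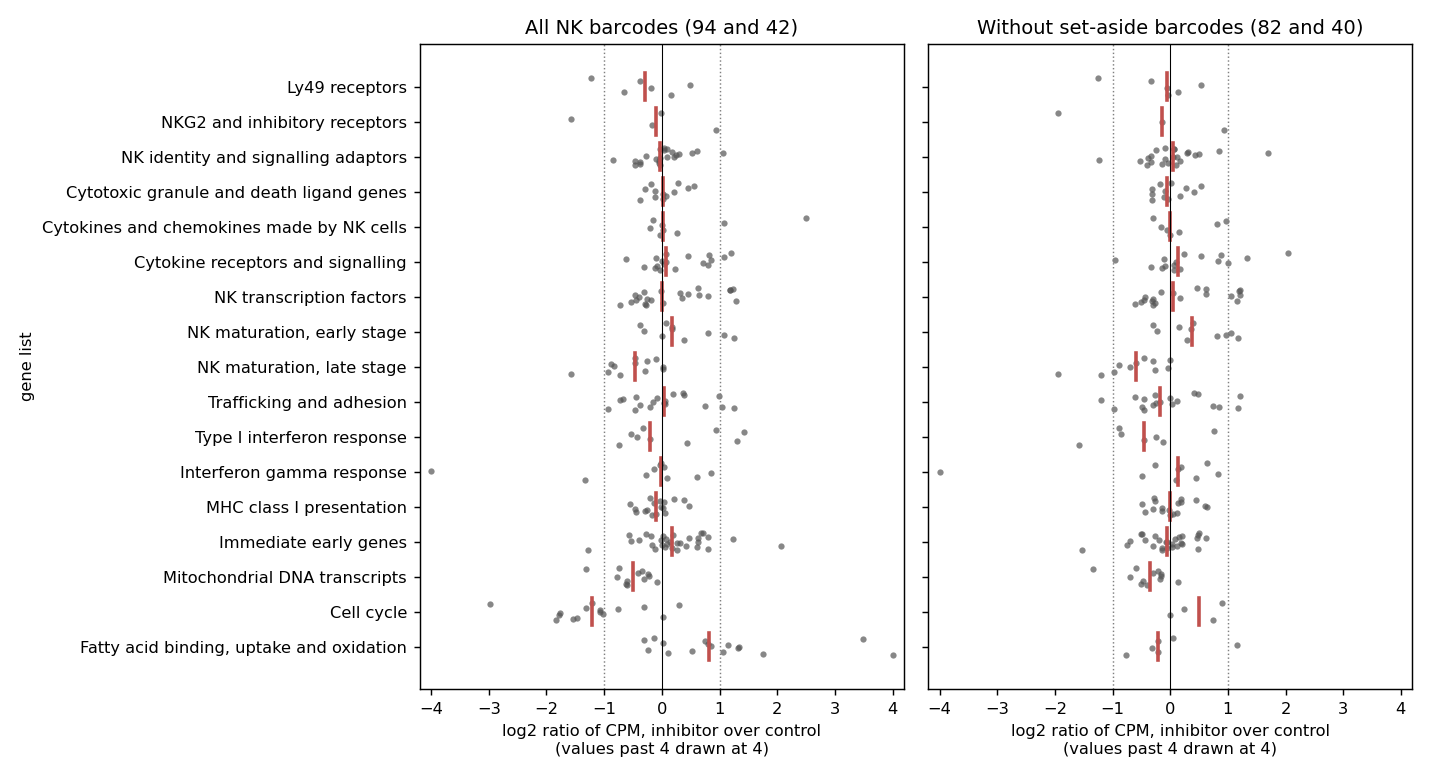
Log2 ratio of CPM, inhibitor over control (values past 4 drawn at 4), for the counted genes (points) of 17 gene lists and their medians (red bars), over all NK barcodes at the left and without the set-aside barcodes at the right, with dotted lines at 2-fold. The late maturation median, with the choice gene S1pr5 included, is -0.47 at the left and -0.59 at the right, and the cell cycle median -1.21 at the left and 0.49 at the right.

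Lists that rested on single barcodes changed when these were left out. Cell cycle genes had 11 of 15 counted at least 2-fold lower in inhibitor NK cells and 0 higher, against 3.58% and 7.72% of all counted genes. Their median was -1.21, but 0.49 over the 4 genes still counted without the set-aside barcodes. The 2 control barcodes set aside held 461 and 84 UMIs of cell cycle genes. An inhibitor barcode with 106 such UMIs was not set aside. It held 19 of the 31 Stmn1 UMIs then left in inhibitor NK cells, against 9 left in control NK cells. The part of that barcode in the median of 0.49 was not tested. Mki67, the proliferation marker, had 11 and 17 UMIs, 13 of the 17 in the control barcode with most UMIs. Fatty acid binding, uptake and oxidation genes had 7 of 16 at least 2-fold higher and 0 lower, with a median of 0.82, and of -0.21 over 6 genes without the set-aside barcodes, 1 of them higher. Plin2, the coat protein of lipid droplets, had 52 and 2 UMIs, 30 of the 52 in 1 barcode, with log2 ratios of 3.49 and 2.76 with and without the set-aside barcodes. Fabp5, which codes for the target of the inhibitor, had 0 UMIs in the NK cells of both libraries, where 3 UMIs would be 7.98 CPM in the inhibitor and 18.4 CPM in the control set. In all other kept barcodes it was at 90.3 CPM in the inhibitor and 247 CPM in the control library. It was low in related lymphocytes too, at 12.9 and 9.88 CPM in ILC1-like barcodes, from 5 UMIs in each library. In CD3 barcodes it was at 23.6 and 47.6 CPM.

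Type I interferon genes had a median of -0.21 over 9 genes with 2, Rtp4 and Ifi27l2a, at least 2-fold higher and 0 lower, beside medians of -0.08 in ILC1-like and -1.53 in CD3 barcodes. These calls turned when the set-aside barcodes were left out, with 0 of 7 higher, 1 (Isg15) lower and a median of -0.46. Interferon gamma genes had 0 higher and 2 lower of 10, the larger difference being Cxcl10 at 13.3 and 276 CPM, with 43 of its 45 control UMIs in a single barcode, and 0 higher and 1 lower of 9 without the set-aside barcodes. MHC class I genes had 0 of 17 past 2-fold. Immediate early genes, which respond to tissue digestion, had 2 higher and 1 lower of 31 with a median of 0.18, and 0 higher and 1 lower of 27 with a median of -0.06 without the set-aside barcodes. Nuclear genes of oxidative phosphorylation had 1 higher and 1 lower of 40 with a median of -0.06, the lower one being Cycs, cytochrome c, at 157 and 338 CPM, -1.10 (-1.66 to -0.55). Transcripts of mitochondrial DNA had a median of -0.51 over 12 genes with 0 higher and 1 lower, and medians of -0.33 in ILC1-like and -0.24 in CD3 barcodes. Heat shock genes had 0 of 12 past 2-fold with a median of 0.20, and glycolysis genes 0 of 13 with a median of -0.00. Lipogenesis genes had 1 of 5 higher and 0 lower with a median of 0.21, and of -0.56 over 3 genes without the set-aside barcodes. Of the 6 counted genes of the ILC1 list 3 were higher (Ltb, Cxcr3 and Nr4a1) and 0 lower, and without the set-aside barcodes 1 of 6, Cxcr3. The 2-fold counts of these lists stand beside 7.72% higher and 3.58% lower among all counted genes. Without the set-aside barcodes these shares were 4.95% and 3.45%.

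The genes taken by rank, 12 in each direction, split by whether they rested on single barcodes. Among the higher 12, Fabp1, Oat, Glul, Phyh, Cyb5a, Gstm1, Plscr1, Aldh2 and Fth1 each had most of their excess in a single inhibitor barcode, which for Fabp1 held 509 of 521 UMIs and for Oat 240 of 259. Phyh, Gstm1, Aldh2 and Fth1 had log2 ratios of 0.86 to 2.75 with the set-aside barcodes and of -2.18 to -0.26 without them. Fabp1 had 0 UMIs in control NK cells, so that against a floor of 3 UMIs over the set it was higher by at least 6.23 on the log2 scale, and by at least 0.83 without the set-aside barcodes. Bcl2, Ccr2 and Sla, an adaptor that damps receptor signalling, had log2 ratios of 0.85 to 1.86 without the set-aside barcodes, Sla from 28 and 2 UMIs, and had at most 12 UMIs in any inhibitor barcode. Oat, Cyb5a and Plscr1 also stayed above 0 without them, at 2.86, 1.11 and 0.88, Oat from 15 and 1 UMIs. The intervals of Plscr1 (-0.59 to 2.66) and Sla (-0.24 to 5.03) without the set-aside barcodes included 0. Among the lower 12, the cell cycle genes Stmn1, Tubb5, Hmgb2 and Dut had 25 to 113 of their control UMIs in 1 barcode and log2 ratios of -0.20 to 0.74 without the set-aside barcodes. Of the 31 Stmn1 UMIs then left in inhibitor NK cells, 19 lay in 1 barcode.

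Klra9, Klrg1, Nrgn, Lars2, Babam1 and Tceal9 kept log2 ratios of -2.21 to -1.25 without the set-aside barcodes. Nrgn, neurogranin, had 39.9 CPM in inhibitor and 196 CPM in control NK cells, with 16 of its 32 control UMIs in a single barcode. Lars2, the mitochondrial leucyl-tRNA synthetase gene, was at 69.2 and 203 CPM, and its log2 ratio of -1.55 stood beside -1.53 in ILC1-like and -1.58 in CD3 barcodes, about the same in all 3 sets. Ranbp1 and Hprt were at -1.35 and -1.28, and at -0.44 and -0.85 without the set-aside barcodes.

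**Figure D5:**
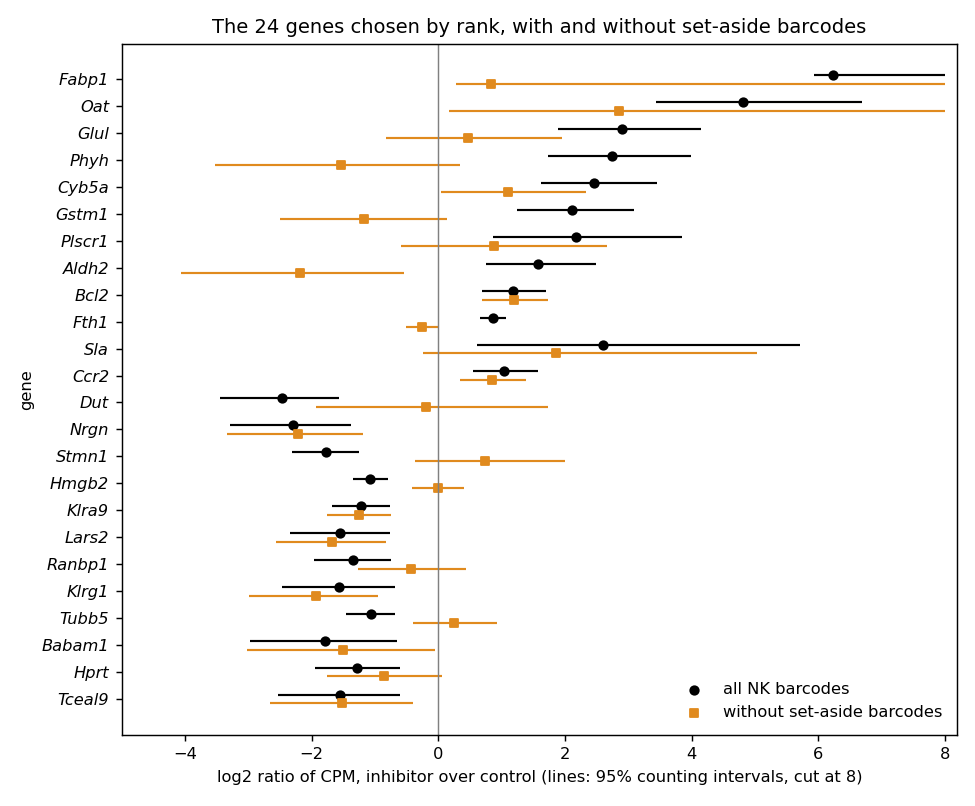
Log2 ratio of CPM, inhibitor over control, with 95% counting intervals (lines, cut at 8) for the 24 genes taken by rank, over all NK barcodes (black) and without the set-aside barcodes (orange). Bcl2 is at 1.18 and 1.19 and Klra9 at -1.22 and -1.25, whereas Stmn1 is at -1.77 and 0.74. Without the set-aside barcodes 19 of the 31 inhibitor UMIs of Stmn1 lie in 1 barcode.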

How the data were processed

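The deposited values are raw UMI counts, whole numbers for 31053 features and each barcode, made by the authors with Cell Ranger 5.0.1 per the file headers. Per the labels' protocols the libraries were made with the version 2 3′ kit of 10x Genomics. The submitters' processing notes also name R 3.0, Seurat 3 and mm9. Since 30934 feature identifiers were found in GENCODE M21, a GRCm38 annotation, the build behind the counts is unsettled, and no coordinate was taken from the files.

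Barcodes were filtered and chosen as described, and the conventional NK cells and all 30 gene lists were chosen with earlier results of these data known. UMIs were summed per library and expressed as CPM of all UMIs of the set, with exact Poisson 95% intervals, ratios with exact conditional binomial intervals, and shares with Clopper-Pearson intervals. Genes without a UMI in a set entered at 3 UMIs, which bounds the observed ratio but is not a limit of its counting interval. PCR and counting aside, these intervals do not cover animals or preparations. Genes needed at least 20 UMIs in both libraries together. With 1 library per group no test was run. Genes taken by rank were the 12 highest and 12 lowest by the interval bound nearest to no change, with at least 30 UMIs, detection in at least 10% of cells and a CPM in the higher library of at least 0.5 of that over all its deposited barcodes. Mitochondrial, ribosomal protein, haemoglobin, antigen receptor, unnamed and choice genes were left out. Other named genes are list members, some of which are not reported here. Shares of cells were also taken after thinning each cell to 1400 UMIs. The ratio calculation was tested on simulated data. Promoters came from a RefSeq table on GRCm38.p6. Python 3.11.15, numpy 2.4.6, scipy 1.17.1, pandas 2.3.3, Biopython 1.88, matplotlib 3.10.9 and edgeR 4.0.16 (TMM factors only) were used. Alternatives covered quality limits, choice limits, depth, scaling, minimum counts and free RNA.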

Additional observations from a re-analysis of the deposited data

Results flagged for a closer look

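The share of conventional NK cells among kept barcodes was higher in the inhibitor library than in the control library, with a log2 ratio of 0.69 (0.15 to 1.25), while that of ILC1-like barcodes was lower, with -0.99 (-1.43 to -0.55). They are singled out because related innate lymphocytes differed in opposite directions under the same contrast. A lower share was not particular to ILC1-like barcodes, as B cell, neutrophil and CD3 barcodes were at -1.27, -0.79 and -0.40. The interval of the NK ratio included no change after thinning, and the ratio fell to -0.35 in 1 alternative. These alternatives are given for the NK share only. The difference between the NK and ILC1-like ratios was not tested, as each library is a single sample.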

How the results depend on the processing

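The log2 ratio of the NK share ranged from -0.35 to 1.00 over 11 alternatives. The single reversal, -0.35, came when cells with a UMI of Lyz2, Cd68, S100a8, Cd79b, Ms4a1, Flt3 or Siglech were left out. The number of genes at least 2-fold higher in inhibitor NK cells (263) was 148 without cells over 2 times the median UMIs, 59 without cells with the UMIs just named, 76 when barcodes were thinned to 1500 UMIs before the choice, 129 without the set-aside barcodes, 69 with at least 50 UMIs per gene, 972 with no minimum and 551 at 1.5-fold. The number at least 2-fold lower (122) was 33 after thinning, 28 with at least 50 UMIs, 657 with no minimum and 403 at 1.5-fold. List medians of at least 1.5-fold turned as follows. Without cells over 2 times the median UMIs the fatty acid list was at -0.18, cell cycle at 0.44 and erythroid at -0.39. Without the set-aside barcodes these were -0.21, 0.49 and -0.39, and without the deepest NK cell of each library the first 2 were -0.13 and 0.40. Leaving out cells with the UMIs just named gave -0.54 for the fatty acid, -0.85 for the macrophage and -1.35 for the dendritic list, and thinning gave -0.98 for the erythroid list. Medians nearer to 0 also turned. Without the set-aside barcodes these were lipogenesis (-0.56), hepatocyte (-4.44), immediate early (-0.06), trafficking (-0.17), identity (0.05), killing (-0.06), secreted signals (-0.01), interferon gamma (0.13) and glycolysis genes (0.34), and over all alternatives the hepatocyte median ran from -5.41 to 2.74. Among single genes, leaving out cells over 2 times the median gave -1.61 for Phyh, -1.25 for Gstm1, -2.004 for Aldh2, -0.13 for Fth1, 0.70 for Stmn1 and 0.18 for Tubb5, and leaving out the set-aside barcodes gave -1.53, -1.17, -2.18, -0.26, 0.74 and 0.25. Leaving out the deepest cells gave -0.99 for Phyh, -1.03 for Gstm1, -1.01 for Aldh2, -0.10 for Fth1 and 0.40 for Tubb5. Leaving out cells with the UMIs just named gave -0.61 for Glul, -1.03 for Phyh, -1.35 for Gstm1, -0.73 for Aldh2 and -0.12 for Fth1. Thinning gave -0.79 for Glul, -2.30 for Gstm1, -3.30 for Aldh2 and -0.056 for Fth1. The mean over cells gave -0.54 for Aldh2 and -0.058 for Fth1. The causes were not tested. The set-aside and deepest barcodes and the choice genes were chosen for leaving out after the data had been seen. Of the other gene ratios, 307 stayed within their counting interval and 47 moved out of it in the same direction. Of the other list medians, which have no interval, 427 stayed within 1.5-fold of the reported median, 63 of them with a change of sign, and 30 moved further, 11 of them with a change of sign. The medians that changed sign so were at most 0.29 in size as reported. TMM factors were 0.998 and 1.00. At 94 and 42 cells the depth limits genes under about 20 UMIs. No paired analysis was possible because each group has 1 library.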
